A study of Mus musculus with 7 samples.

Results

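The contacts described here join the Epha4 domain with the side of Pax3, across a domain border on mouse chromosome 1. Members were chosen by position: pairs of 10 kb bins with 1 bin at 75.90 to 77.51 Mb (mm9, 161 bins, Epha4 domain) and the other at 77.52 to 78.48 Mb (96 bins, Pax3 side). This gave 15456 of the 500500 bin pairs of the map, which covers 71 to 81 Mb. They lie 20 to 2570 kb apart, and the bin at 77.51 Mb between both sides belongs to neither. No member bin lies in an inverted segment. All inversions lie within 74.79 to 75.90 Mb, beside the outer end of the Epha4 stretch.

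Chromosomes fold into domains inside which loci meet often. Cohesin is thought to extrude loops of chromatin until it is stopped by CTCF, a DNA-binding protein found at many domain borders, and contact across such a border is lower than inside the domains. Epha4 encodes an ephrin receptor tyrosine kinase that acts in the limb bud and in axon guidance, and Pax3 a factor that regulates transcription in precursors of muscle and of the neural crest. The border between them keeps enhancers of the limb away from Pax3, and its loss in deletions is a known cause of Pax3 misexpression in limbs. In RefSeq gene order (GRCm38.p6) Epha4 and Pax3 are neighbours among protein-coding genes, followed by Gm2102, Sgpp2, Farsb and Mogat1. That table is of another build than the maps, so no gene was placed on the bins below.

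Capture Hi-C, which enriches ligated DNA ends of a chosen region, was used to follow CRISPR/Cas9 inversions at this locus. The 6 limb bud libraries were WT, the inversions Inv1, Inv2, Inv3 and Inv4, and Inv1DelCTCF, which by its name adds a deletion at CTCF to Inv1 (how far it reaches is not stated there). Each pooled forelimb and hindlimb buds of 10 embryos at stage E11.5, and their titles also read Distal. The remaining library was of an Inv1 embryonic stem cell (ESC) line, known as such from title and design text, while the labels list limb bud as source and the G4 ESC line as cell type for every library. No WT ESC library was analysed here. Zygosity is not given in the labels, but the file names of the Inv2, Inv3 and Inv4 maps carry the mark hom, which is not explained there. With 1 library per condition there was no replicate and no test between conditions. Intervals below are 95% counting intervals, which cover the sampling of read pairs (PCR products without molecular identifiers) and not the spread between embryos or library preparations. No expression was measured in these libraries, so tissue labels could not be checked with marker genes.

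From the balanced values, 5155259 read pairs were recovered for WT and 3903326 to 4305909 for Inv1, Inv1DelCTCF and Inv1 ESC. For Inv2, Inv3 and Inv4, maps were deposited after a multiple of the WT map had been subtracted, which left negative values at 12.3%, 11.48% and 10.4% of the member pairs. The labels do not describe this step, so what the remaining values represent rests on it. These maps also share WT reads with the WT map, and each comparison with WT below uses that 1 library. Before the subtraction these 3 libraries held 2885689 to 3670982 read pairs outside the inversions, against 4367324 in WT. Member pairs held 146582 read pairs in WT, 112655 in Inv1, 118585 in Inv1DelCTCF and 141492 in Inv1 ESC. For Inv2, Inv3 and Inv4 they held 125371, 116565 and 109753 before the subtraction.

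The assay joins DNA ends at DpnII sites (GATC), so contact can be read only where a site lies near. The RefSeq promoter of Epha4, the gene that gives the domain its name, is shown with its 1 GATC site in capitals (GRCm38.p6, chr1:77515039-77515338, minus strand, 5′ to 3′; not positions on the mm9 maps), and 48% of the 32851 promoters of this length in the table hold such a site.
Epha4 promoter: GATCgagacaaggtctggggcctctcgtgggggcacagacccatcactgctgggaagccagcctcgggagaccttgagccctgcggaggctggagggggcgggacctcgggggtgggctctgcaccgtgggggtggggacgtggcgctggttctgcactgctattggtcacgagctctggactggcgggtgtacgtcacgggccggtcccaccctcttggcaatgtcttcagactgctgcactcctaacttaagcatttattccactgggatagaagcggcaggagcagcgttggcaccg
Across a stretch of 10 kb a bin sums the contacts of many such sites, which is why the results below are given for bins and larger blocks.

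The border was present in all 7 libraries. Contact across it was compared with contact at the same distance inside either domain, over the 4938 member pairs 50 to 1000 kb apart. In WT limb buds the contact across the border was 55.6% of that inside (interval 55.1% to 56.2%), from a mean balanced signal of 10.8 across and 19.5 inside. Inv1 was at 53.9% (53.3% to 54.5%), Inv2 at 55.4% (54.2% to 56.6%) and Inv3 at 54.9% (53.7% to 56.1%). In Inv4 it was 57.9% (56.7% to 59.1%), and in Inv1DelCTCF 53.1% (52.6% to 53.7%). The 6 limb bud libraries thus lay within 53.1% to 57.9%. In Inv1 ESC the value was 86.7% (85.9% to 87.5%), far outside that range. The inside pairs of the Pax3 side include those across a second border near 77.93 Mb, described below. With the Epha4 domain alone as reference, WT was at 53.3% and Inv1 ESC at 82.3%.

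Against WT, the ratio of Inv2 was 0.995-fold (interval 0.969 to 1.02) and that of Inv3 0.987-fold (0.961 to 1.01), and both intervals include 1. It was 0.969-fold in Inv1 (0.955 to 0.983), 0.955-fold in Inv1DelCTCF (0.942 to 0.969) and 1.04-fold in Inv4 (1.01 to 1.07). These 3 intervals leave out 1, and whether they exceed the spread between libraries of 1 genotype could not be tested. Inv1DelCTCF over Inv1 was 0.986-fold (0.971 to 1.002), an interval that includes 1. Inv1 ESC over Inv1, which carry the same inversion in different cells, was 1.61-fold (1.59 to 1.63).

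**Figure D1:**
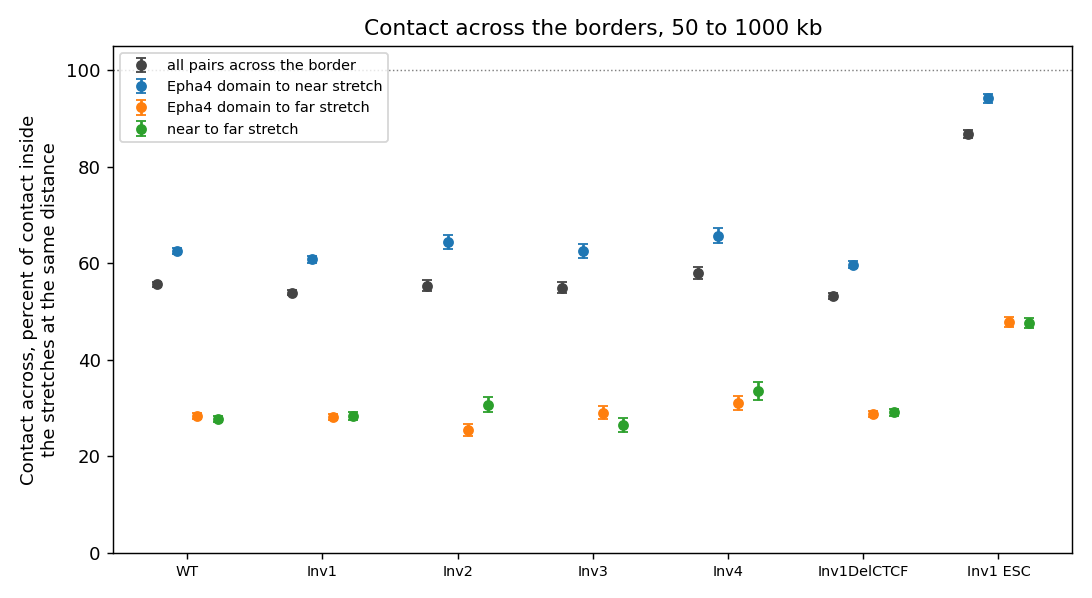
Contact across the borders as a percent of contact inside the stretches at the same distance (y axis, 50 to 1000 kb) in each of the 7 libraries (x axis, 1 library each), with bars for 95% counting intervals. The near stretch is 77.52 to 77.92 Mb and the far stretch 77.95 to 78.48 Mb. The 6 limb bud libraries lie between 53.1% and 57.9% for all pairs across the border, and Inv1 ESC at 86.7%.

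The position of the border was read from an insulation score, which is log2 of the mean contact between the 200 kb to the left and to the right of a bin, relative to the map. The lowest score lay at the bin starting at 77.51 Mb in WT, Inv1, Inv3, Inv4 and Inv1DelCTCF, at 77.52 Mb in Inv2 and at 77.53 Mb in Inv1 ESC. The depth of the minimum, measured to the lower of the maxima within 300 kb on either side, was 1.20 ± 0.018 in WT (counting standard error), so that contact at the border was less than that beside it by over 2-fold. Inv1 had 1.08 ± 0.021, Inv2 0.97 ± 0.044, Inv3 1.099 ± 0.046, Inv4 0.95 ± 0.044 and Inv1DelCTCF 1.17 ± 0.022. Inv1 ESC had the shallowest, 0.90 ± 0.019, and the order of the libraries by depth changed without balancing, where WT was at 1.15 and Inv1DelCTCF at 1.25. With a 400 kb square it was 0.50 in WT and 0.092 in Inv1 ESC. By depth it ranked as the fifth boundary in WT among those outside the inversions, and sixth or seventh in the other libraries.

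At the WT minimum WT had a score of -1.06, Inv1 -0.99, Inv2 -1.05, Inv3 -1.10, Inv4 -0.97 and Inv1DelCTCF -1.08. The differences of these 5 mutants to WT ran from -0.043 to 0.088, while the SD of the same difference over 809 bins outside the inversions was 0.038 to 0.083. Inv1 stood 0.070 above WT with an SD of 0.038, and 6.92% of the 809 bins differed as much. Inv1DelCTCF was 0.087 below Inv1 (SD 0.030), a difference that 1.24% of bins matched, so that its score was the closer to WT. Inv1 ESC was at -0.72, which is 0.34 above WT with an SD of 0.17 over the map, and 4.82% of bins differed as much. Of the 21 bins within 100 kb of the border, 12 had a score at least 0.2 above WT in Inv1 ESC, against 13% of the 809 bins. Relative to Inv1 it was 11 of 21, against 11% of bins. All of these bins lay from 77.41 to 77.52 Mb, on the Epha4 side and at the minimum. From 77.55 to 77.61 Mb, on the Pax3 side, Inv1 ESC was below WT, with -0.48 against -0.29 at 77.61 Mb. At 77.62 Mb, just past these bins, it was at -0.41 against -0.20. In the limb bud mutants the count at least 0.2 above WT was 0 of 21 in Inv1, where 0% of bins reached it, 0 in Inv2 (0.247%), 0 in Inv3 (1.36%), 3 in Inv4 (0.371%) and 0 in Inv1DelCTCF (0%). The count at least 0.2 lower was 0 of 21 in all these comparisons, against 0% of bins for Inv1, 1.48% for Inv2, 1.98% for Inv3, 0.989% for Inv4, 0.124% for Inv1DelCTCF and 7.66% for Inv1 ESC (6.67% relative to Inv1). Neighbouring bins share most of their square, so these bins are not independent.

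**Figure D2:**
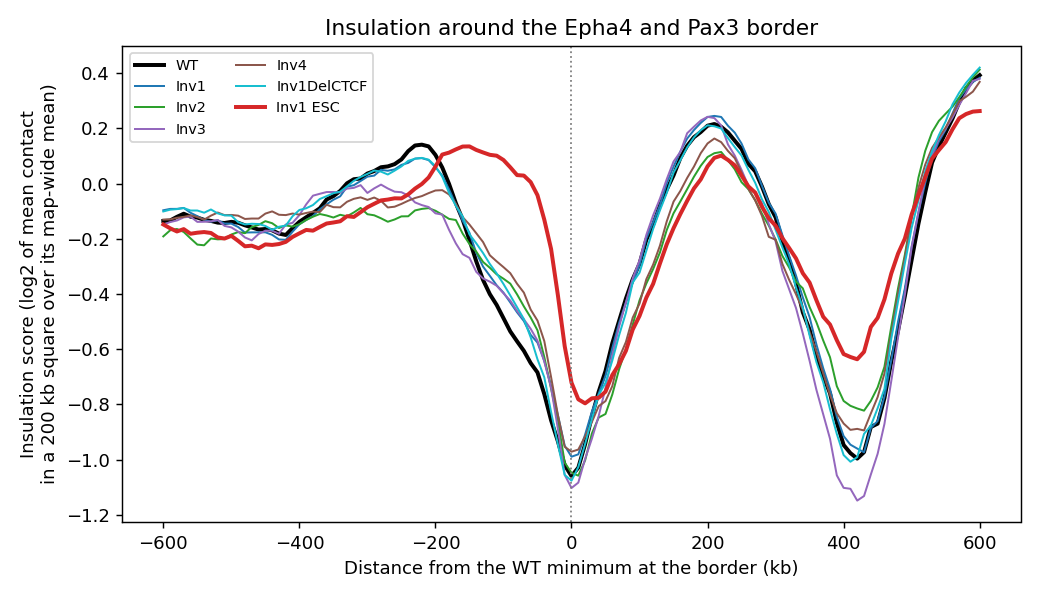
Insulation score (y axis, log2) by distance from the WT minimum at 77.51 Mb (x axis, kb), with 1 line per library. The minimum at the border reaches -1.06 in WT and -0.80 in Inv1 ESC, whose maximum on the Epha4 side lies at 77.36 Mb against 77.29 Mb in WT, and another minimum follows about 400 kb into the Pax3 side.

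The border also showed at the shortest range. The member pair that spans the border at 20 kb had a balanced signal of 98.9 in WT, from 156 read pairs, against 149 to 385 for the 253 pairs at 20 kb inside the domains. In Inv1 it was 71.3 against 99.4 to 280, and in Inv1 ESC 85.4 against 108 to 394. This pair lay below all 253 pairs inside the domains in 6 libraries, and below all but 1 in Inv4 (36.0, with 17.8 the lowest inside). Over the 45 member pairs from 20 to 100 kb, contact across the border was 47.8% of that inside for WT, 49.98% for Inv1, 43.3% for Inv2, 42.5% for Inv3, 45.6% for Inv4 and 47.4% for Inv1DelCTCF. Inv1 ESC, at 48.8%, lay inside the range of the limb buds at this distance.

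With distance the libraries parted. From 210 to 400 kb contact across was 55.8% of that inside in WT and 77.8% in Inv1 ESC, with the limb bud mutants at 53.6% to 63.4%. From 410 to 600 kb it was 62.3% in WT and 97.2% in Inv1 ESC, the latter from 18394 read pairs, with the limb bud mutants at 58.2% to 65.5%. In the stem cells, loci 410 to 600 kb apart thus met across the border nearly as often as inside the pooled domains, and at 89.4% of the contact inside the Epha4 domain alone (58.7% in WT). From 610 to 1000 kb the value was 53.7% in WT and 91.8% in Inv1 ESC, with the limb bud mutants at 50.5% to 54.4%. The inside reference itself differed: at 1010 to 1500 kb, where it holds Epha4 domain pairs alone, the mean signal inside was 17.3 in WT and 10.0 in Inv1 ESC, while that across was 7.56 and 7.12. The sum per balanced bin was 9242 in WT and 7766 in Inv1 ESC, so these signals compare within a library. The percentages at that distance were 43.7% in WT and 71.0% in Inv1 ESC, with the limb bud mutants at 40.5% to 44.4%. From 1510 to 2000 kb they were 30.5% in WT and 58.2% in Inv1 ESC, with the limb bud mutants lower than WT, at 23.9% to 26.5%. The reference there holds only pairs joining opposite ends of the Epha4 domain, so member pairs longer than that domain were not compared.

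Contact across the border fell more slowly with distance than contact in the map as a whole. The slope of log contact on log distance from 50 to 900 kb was -0.56 across the border in WT, -0.62 inside the Epha4 domain, -0.87 inside the Pax3 side and -0.85 over all pairs outside the inversions. Across the border Inv1 had -0.59, Inv2 -0.52, Inv3 -0.51, Inv4 -0.49, Inv1DelCTCF -0.55 and Inv1 ESC -0.40. The slope over all pairs also was shallower in the mutants, at -0.82 in Inv1 and Inv1 ESC, -0.80 in Inv2 and Inv3, -0.77 in Inv4 and -0.81 in Inv1DelCTCF. From balanced signal, Inv2, Inv3 and Inv4 had the shallowest slopes of the limb buds across the border, but this order depended on the processing. From 50 to 1500 kb, Inv1DelCTCF was at -0.53 both from balanced signal and from unbalanced read pairs, where Inv2, Inv3 and Inv4 were at -0.58, -0.56 and -0.55. With the subtracted share added back, Inv2 was at -0.54, steeper than Inv1DelCTCF. Relative to the mean of the whole map at each distance (observed over expected), member pairs in WT rose from 0.426 at 20 to 100 kb through 0.840 at 610 to 1000 kb to 1.22 at 1010 to 1500 kb and 1.996 beyond 2000 kb. Member pairs over 1000 kb apart were thus above the mean of the map at their distance. Inv1 ESC went from 0.436 through 1.21 to 1.44 and 2.19 in the same classes.

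**Figure D3:**
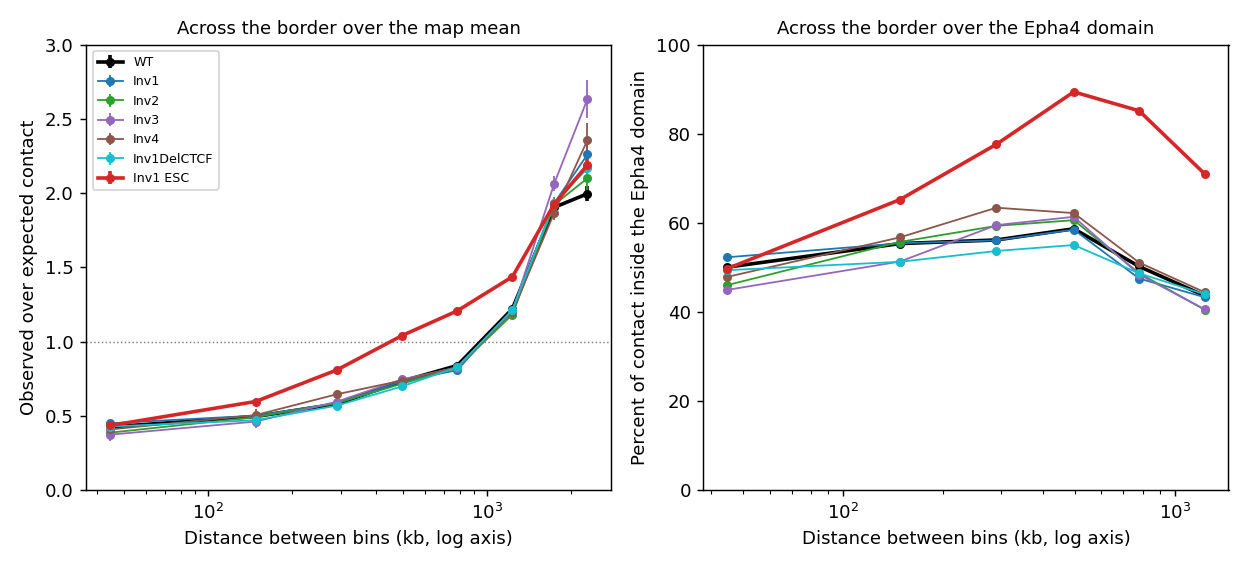
Contact of member pairs by distance between bins (x axis, kb, log axis) in each library, as observed over expected (left, with 95% counting intervals) and as a percent of contact inside the Epha4 domain at the same distance (right, up to 1500 kb). Inv1 ESC lies above the limb bud lines from 110 to 1500 kb and meets them at the shortest distances.

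The Pax3 side was not 1 domain. A second minimum of the insulation score lay inside it at 77.93 Mb in WT, with a depth of 1.21, which is as deep as the border at 77.51 Mb. It was found at 77.92 to 77.94 Mb in the other libraries, and its depth was 1.22 for Inv1, 0.94 for Inv2, 1.39 for Inv3, 1.06 for Inv4, 1.22 for Inv1DelCTCF and 0.74 for Inv1 ESC. The Pax3 side was therefore also described as a near stretch (77.52 to 77.92 Mb, 40 bins) and a far stretch (77.95 to 78.48 Mb, 53 bins), a split chosen after its values had been seen. The near stretch held 101092 of the 146582 WT read pairs across the border, and the far stretch 40001.

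The near stretch met the Epha4 domain far more than the far stretch did. In WT, contact between the Epha4 domain and the near stretch was 62.5% of contact inside them at the same distance (61.9% to 63.2%), while that between the Epha4 domain and the far stretch was 28.4% (27.8% to 29.0%). In the limb bud mutants the first was 59.7% to 65.7% and the second 25.4% to 31.1%. In Inv1 ESC the values were 94.1% (93.2% to 95.1%) and 47.9% (46.8% to 48.9%). The order of both stretches was thus the same in all 7 libraries, and both were higher in the stem cells.

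The 2 borders of the near stretch were compared over pairs 50 to 400 kb apart, a range that both can hold. Contact across the border at 77.51 Mb was 54.2% of that inside in WT (53.3% to 55.1%), and contact across the one at 77.93 Mb was 35.5% (34.7% to 36.2%). In the limb bud mutants these values were 51.8% to 59.6% and 32.8% to 42.4%, and within each library the intervals did not overlap. In Inv1 ESC they were 71.1% (70.0% to 72.3%) and 51.7% (50.7% to 52.8%). Each border had its own reference, contact inside the 2 regions it parts, and the bins between the near and far stretch were in neither. Over 50 to 1000 kb in WT the mean signal was 13.9 across and 22.2 inside for the border at 77.51 Mb. For the one at 77.93 Mb it was 14.5 and 52.3, over pairs of other distances. Relative to these references, the near stretch met the far stretch less than the Epha4 domain, in the stem cells as in the limb bud. By depth of the insulation score the order was the reverse in Inv1 ESC (0.90 at the first border, 0.74 at the second). In Inv1, Inv3, Inv4 and Inv1DelCTCF the second minimum was the deeper. In WT (1.20 and 1.21) and Inv2 (0.97 and 0.94) the depths differed by less than the counting standard error of the first. No such error was computed for the second minimum.

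As a share of all its contacts, the near stretch spent 22.7% ± 0.077 with the Epha4 domain in WT (counting standard error), 52.0% with itself and 7.23% with the far stretch, which has fewer bins than the Epha4 domain. For Inv1 the share with the Epha4 domain was 23.7%, for Inv2 24.7%, for Inv3 25.6%, for Inv4 27.9%, for Inv1DelCTCF 23.8% and for Inv1 ESC 29.1%. The far stretch spent 6.86% with the Epha4 domain in WT and 8.92% in Inv1 ESC, with the limb bud mutants at 6.83% to 9.48%. In Inv4 the share of the near stretch with itself was 43.6%, the lowest of the libraries, and its slope over all pairs was the shallowest. The part of that slope in the higher shares of Inv4 was not tested.

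Bin by bin, the share of contacts that crossed was highest next to the border and fell in steps. In WT the bins of the Pax3 side within 100 kb of the border sent 29.8% of their contacts to the Epha4 domain, with single bins between 23.2% and 41.2%. Bins 300 to 400 kb away sent 21.02%, those 400 to 500 kb away 10.97% and those 600 to 700 kb away 6.04%. The step between 300 and 500 kb lies at the minimum at 77.93 Mb. On the Epha4 side the WT share was 13.5% within 100 kb, 8.97% at 100 to 200 kb and 7.49% to 8.13% in the 14 further blocks up to 1600 kb. Bins deep in the Epha4 domain thus sent about as large a share across as bins 200 to 300 kb from the border (7.71%).

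In Inv1 ESC the shares of the Epha4 side took another form. Within 100 kb of the border the share was 13.3%, as in WT, but it was 14.9% at 100 to 200 kb, 14.1% at 300 to 400 kb, 12.02% at 500 to 600 kb and 9.66% at 700 to 800 kb. From 1000 to 1500 kb it was 7.81% to 7.90%, against 7.49% to 7.92% in WT. The excess over WT was thus absent in the 100 kb at the border and largest in the next few 100 kb. Beyond 1000 kb it was small or absent, with 7.90% against 7.54% in WT at 1300 to 1400 kb. On the Pax3 side the stem cells sent 39.7% across from the first 100 kb (29.8% in WT), 28.1% from the next (21.3%) and 23.9% from 300 to 400 kb (21.02%). In Inv1 limb buds the same 5 blocks of the Epha4 side held 13.4%, 9.72%, 8.30%, 7.86% and 7.86%. From 1000 to 1500 kb Inv1 limb buds had 8.17% to 8.35%, above the 7.81% to 7.90% of Inv1 ESC.

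**Figure D4:**
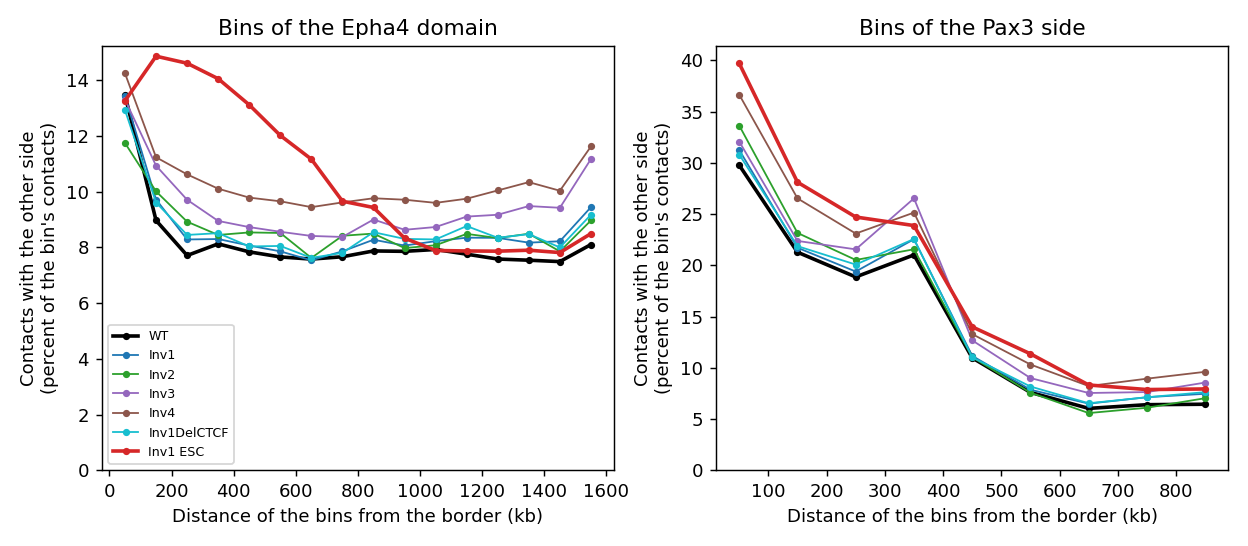
Contacts with the other side of the border as a percent of all contacts of a bin (y axis, mean of 10 bins) by distance of the bins from the border (x axis, kb), for bins of the Epha4 domain (left) and of the Pax3 side (right), with 1 line per library. In WT the Epha4 side levels off near 8% after 200 kb, whereas Inv1 ESC reaches 14.9% at 100 to 200 kb.

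Of the 15456 members, 14400 were then grouped into 144 blocks of 100 kb by 100 kb, counted from the border outward, and observed over expected contact was taken for each. The other 1056, with a bin at 75.90 Mb or at 78.42 to 78.48 Mb, filled no whole block and were left out of the block counts. In WT observed over expected ran from 0.379 to 4.95 with a median of 1.08. It was below 1 in 65 of 144 blocks (45.1%), against 61.2% of the 1422 other blocks within the same range of distances. The other blocks, here and below, were not matched to the members in how many lie at each distance. The lowest blocks joined 77.21 to 77.31 Mb with 78.12 to 78.22 Mb (0.379, from 491 read pairs), 77.31 to 77.41 Mb with the same (0.391) and 77.31 to 77.41 Mb with 78.02 to 78.12 Mb (0.398). These lie close to the border on the Epha4 side and in the far stretch. The highest joined the far end of the Epha4 domain with the near stretch: 75.91 to 76.01 Mb with 77.82 to 77.92 Mb (4.95, from 1452 read pairs) and with 77.52 to 77.62 Mb (4.54, from 1993), and 76.01 to 76.11 Mb with 77.82 to 77.92 Mb (3.65). The expectation is that of the whole map, so a value over 1 at these distances does not mean more contact than inside the Epha4 domain.

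Within the highest WT block, the strongest patch of 3 by 3 bins over 1000 kb joined 75.91 to 75.94 Mb with 77.87 to 77.90 Mb, 1960 kb apart. It was chosen after the values had been seen. It held 167 read pairs and an observed over expected of 7.48 in WT, 200 read pairs and 9.78 in Inv1, and 147 and 7.47 in Inv1DelCTCF. After the subtraction it was at 9.04 in Inv2, 11.8 in Inv3 and 6.22 in Inv4. Inv1 ESC had 83 read pairs and 4.46, the lowest of the 7. The highest such patch in Inv1 ESC lay beside it, at 75.90 to 75.93 Mb with 77.90 to 77.93 Mb, with 135 read pairs and 5.72 against 187 and 6.54 in WT. The same corner of the map thus held the strongest long-range contact in both, at a lower level in the stem cells.

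**Figure D5:**
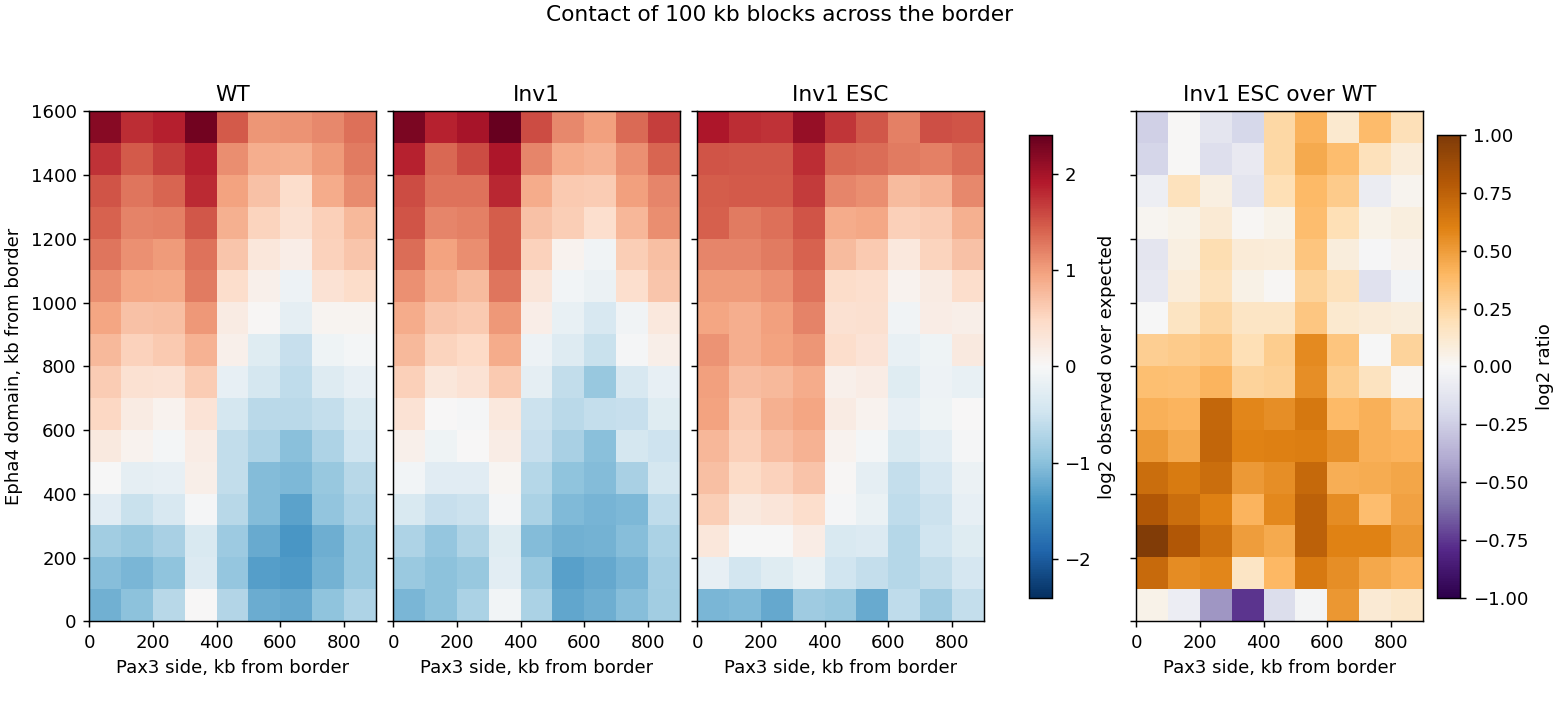
Contact of 100 kb blocks across the border in WT, Inv1 and Inv1 ESC (log2 observed over expected, colour) and the log2 ratio of Inv1 ESC to WT (right, pseudocount 0.1), by distance from the border on the Pax3 side (x axis, kb) and in the Epha4 domain (y axis, kb). The highest WT block is at 4.95, at the far end of the Epha4 domain. The 23 blocks past 1.5-fold in Inv1 ESC lie within 800 kb of the border on the Epha4 side. Of the 72 blocks beyond, 56 were also higher, a count for which no share of the other blocks was computed.

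In the limb bud mutants few blocks differed from WT. Past a 1.5-fold change (pseudocount 0.1), Inv1 had 0 of 144 blocks above WT, against 0% of the 1422 other blocks, and 0 below, against 0.281%. Inv2 had 0 above (1.34% of other blocks) and 0 below (5.2%), and Inv4 0 above (0.563%) and 0 below (2.6%). Inv1DelCTCF had 0 above WT (0.0703%) and 0 below (0.281%), and against Inv1 0 above (0.141%) and 0 below (0%). Inv3 had 2 blocks above (1.39% of members, against 0.844%) and 0 below (5.49%). The median log2 ratio to WT over the 144 blocks lay between -0.023 and 0.035 in these 5 mutants. Across the 144 blocks, which share bins and reads, levels correlated with WT at r = 0.992 for Inv1, 0.984 for Inv2, 0.970 for Inv3, 0.976 for Inv4, 0.993 for Inv1DelCTCF and 0.958 for Inv1 ESC.

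The blocks with the largest rise in each limb bud mutant lay over 1000 kb apart, and each held under 1000 read pairs. In Inv3 the block of 75.91 to 76.01 Mb with 78.32 to 78.42 Mb was at 4.15 against 2.50 in WT (log2 ratio 0.71, 431 and 433 read pairs). The same block showed the largest rise in Inv1, at 3.17 (log2 ratio 0.33). In Inv2 the largest rise was that of 75.91 to 76.01 Mb with 77.92 to 78.02 Mb (3.79 against 2.76), and in Inv4 that of 76.21 to 76.31 Mb with 78.32 to 78.42 Mb (2.395 against 1.72). Inv1DelCTCF rose most between 76.61 to 76.71 Mb and 78.32 to 78.42 Mb (1.19 against 0.967 in WT). The largest falls were those of 76.71 to 76.81 Mb with 78.12 to 78.22 Mb in Inv1 (0.533 against 0.654) and in Inv2 (0.420). In Inv3 it was 76.91 to 77.01 Mb with 77.62 to 77.72 Mb (0.799 against 1.06), and in Inv4 76.21 to 76.31 Mb with 78.12 to 78.22 Mb (0.854 against 1.28). In Inv1DelCTCF 76.51 to 76.61 Mb with 77.92 to 78.02 Mb fell most, to 0.930 against 1.15 in WT and 1.12 in Inv1, and its largest rise over Inv1 was from 1.05 to 1.25 (76.31 to 76.41 Mb with 78.02 to 78.12 Mb).

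The end of the Epha4 domain beside the shared breakpoint, at 75.91 to 76.01 Mb, met the 9 full blocks of the Pax3 side at an observed over expected of 3.41 ± 0.039 in WT (counting standard error). Inv1 had 3.68 ± 0.045, Inv2 3.71 ± 0.091, Inv3 4.12 ± 0.091, Inv4 3.59 ± 0.080 and Inv1DelCTCF 3.53 ± 0.046. All 5 limb bud mutants were thus above the 1 WT library at this end, by most in Inv3 and by least in Inv1DelCTCF. From read pairs without balancing, the values were 4.16 ± 0.045 for WT and 4.25 ± 0.049 for Inv1DelCTCF, whose ranges of 1 standard error overlap. Inv1 was at 4.50, Inv2 at 4.44, Inv3 at 4.70 and Inv4 at 4.34, those of Inv2 to Inv4 before the subtraction. Inv1 ESC was at 3.34 ± 0.041, or 3.91 from read pairs, below WT on both scales.

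In Inv1 ESC, 23 of 144 blocks (16.0%) were over 1.5-fold above WT, against 4.99% of the other blocks, and 1 (0.694%) was below, against 4.57%. Against Inv1 limb buds 27 (18.8%) were above (5.27% of other blocks) and 1 below (4.92%). The median log2 ratio over the 144 blocks was 0.29 to WT and 0.30 to Inv1, against -0.017 and -0.0067 over the other blocks. A larger pseudocount of 0.5 left 2 and 3 blocks above, and a fold of 2 left 0 in both comparisons. With the expectation from the domains alone, 16 were above WT and 23 above Inv1. Shares of the other blocks were not computed at these settings. Of the 23 blocks above WT, 8 lay within 300 kb of the border on the Epha4 side (of 27 blocks) and 15 at 300 to 800 kb (of 45), with 0 of 72 beyond. Of those 72 blocks 56 were higher than in WT, with a median log2 ratio of 0.10, against 0.51 at 300 to 800 kb. All 45 blocks at 300 to 800 kb were higher than in WT and also than in Inv1 limb buds. For these counts by position no share of the other blocks was computed, so how far they depart from the rest of the map is not known. The largest rise joined 77.21 to 77.31 Mb with 77.52 to 77.62 Mb, from 0.564 in WT (2039 read pairs) and 0.595 in Inv1 (1526) to 1.21 in Inv1 ESC (3824).

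A single block fell past 1.5-fold in the stem cells. It joined the last 100 kb of the Epha4 domain, 77.41 to 77.51 Mb, with 77.82 to 77.92 Mb, the last 100 kb before the minimum at 77.93 Mb. It was at 1.01 in WT (2745 read pairs), 0.958 in Inv1 (2018) and 0.553 in Inv1 ESC (1313). Contact between the surroundings of both borders was thus lower in the stem cells while the median block across the first border was higher. Tissue, culture and library differ together between Inv1 ESC and the limb buds and cannot be told apart with 1 library of each.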

How the data were processed

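Capture Hi-C maps of 7 libraries (1 per condition, grouped by sample title) were used. Bowtie2 2.2.6, Juicer and the mm9 build are named in the submitters' processing notes, without their roles. The deposited values are a balanced contact signal per pair of 10 kb bins for WT, Inv1, Inv1DelCTCF and Inv1 ESC (Knight-Ruiz, per the file names). For Inv2, Inv3 and Inv4 the deposited values are a score with negatives: 82.7%, 84.1% and 86.9% of their negative pairs outside the inversions lay within 1% of a constant multiple (0.423, 0.369 and 0.334) of the WT map, a step the labels do not describe. It took 49.1% to 49.4% of the bin sum.

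Read pairs were recovered by fitting 1 factor per bin (tested on simulated maps). Of values under 20 read pairs, 99.9% to 100% lay within 0.1 of a whole number. Unlisted pairs counted as 0. Bins whose number of listed pairs was below 25% of the map's median were dropped, none of them a member. The 95% intervals are Poisson errors of the read pairs carried through each ratio by the delta method, with subtracted WT reads included. Expected contact was the mean at each distance over pairs outside 74.79 to 75.90 Mb. Blocks named are the 3 highest and lowest in WT and the largest rise and fall per comparison. The members and measures were chosen with earlier results of these data known. Calls were counts past a fold, with no test. Python 3.11.15, NumPy 2.4.6 and SciPy 1.17.1 were used. Alternatives were unbalanced reads, reference, window, fold, pseudocount and the subtraction. The deposited tables of scaled contact frequency between a TSS and enhancers were not used here.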

Additional observations from a re-analysis of the deposited data

How the results depend on the processing

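No paired analysis was possible because each condition is 1 library. Contact across the border as a percent of that inside stayed highest in Inv1 ESC under each alternative run. Values below are in the order WT, Inv1, Inv2, Inv3, Inv4, Inv1DelCTCF and Inv1 ESC. Without bins within 100 kb of the border it was 50.1%, 48.1%, 49.9%, 50.4%, 52.2%, 48.2% and 84.6%. With the Epha4 domain alone as reference it was 53.3%, 51.8%, 53.1%, 52.9%, 55.5%, 50.99% and 82.3%, and with the Pax3 side alone 74.1%, 71.3%, 75.5%, 71.7%, 75.98%, 69.8% and 118.9%. For the near stretch it was 62.5%, 60.8%, 64.3%, 62.5%, 65.7%, 59.7% and 94.1%, and for the far stretch 28.4%, 28.1%, 25.4%, 29.0%, 31.1%, 28.8% and 47.9%, a split added after seeing the data. Unbalanced read pairs gave 54.8% in WT, 56.4% in Inv4 and 92.1% in Inv1 ESC. The depth of the border changed with the square: 400 kb gave 0.50, 0.50, 0.38, 0.48, 0.38, 0.50 and 0.092, with the Inv1 ESC minimum at 77.56 Mb, and 100 kb gave 1.24 for WT, 1.16 for Inv1, 1.11 for Inv2, 1.21 for Inv3, 1.14 for Inv4 and 1.09 for Inv1 ESC. Unbalanced it was 1.15 for WT, 1.16 for Inv1, 1.12 for Inv2, 1.22 for Inv3, 1.1001 for Inv4 and 1.25 for Inv1DelCTCF, so the order of WT and its mutants by depth is not settled. With the subtracted share added back it was 1.08 in Inv2 and 1.06 in Inv4. The count of blocks above WT in Inv3 was 0 at a fold of 2, 1 with a pseudocount of 0.5 and 0 with the expectation from the domains alone. Inv1 ESC had 0 and 2 above WT and 0 and 3 above Inv1 at that fold and pseudocount, and 0 and 0 below in either comparison. With that expectation Inv1 ESC had 16 above WT and 23 above Inv1, and 1 below in either comparison. Shares of the other blocks were not computed for these alternatives. The slope from 50 to 1500 kb was -0.59 for WT and Inv1, -0.58 for Inv2, -0.56 for Inv3, -0.55 for Inv4, -0.53 for Inv1DelCTCF and -0.57 for Inv1 ESC from unbalanced read pairs, against -0.56, -0.57, -0.51, -0.49, -0.48, -0.53 and -0.49 from balanced signal in the order above, so Inv1DelCTCF went from steeper than Inv2 to Inv4 and Inv1 ESC to the shallowest. With the subtracted share added back Inv2, Inv3 and Inv4 were at -0.54, -0.52 and -0.52. The cause of these shifts was not tested. Counting errors of the matched percent were larger in Inv2, Inv3 and Inv4, after the subtraction, than in the other 4 libraries.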
